A study of Mus musculus with 6 samples.

Results

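The endothelial cells of the mouse kidney, which line its arteries, capillaries, veins, and glomerular tufts, were followed in single-cell RNA-seq data of naive, rejecting, and tolerized kidneys. A barcode was counted as an endothelial cell, called a member below, when it held 500 or more UMIs of 250 or more genes with no more than 50% of UMIs from mitochondrial genes, when at least 2 of the genes Kdr, Emcn, Egfl7, Plvap, Cdh5, and Pecam1 were detected with at least 3 UMIs in sum, and when no UMI of Ptprc, Cd3e, Slc12a1, or Lrp2 was found. A UMI is a tag that marks 1 captured RNA molecule. Of 49797 barcodes within the limits, 918 were members, or 1.84%. Naive kidneys gave 245 and 203 members, rejecting kidneys 111 and 51, and tolerized kidneys 176 and 132. Each pair of values, here and below, lists replicate 1 before replicate 2.

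Each of the 3 groups had 2 kidneys, and each kidney was 1 library. Naive kidneys came from untransplanted wild-type C57BL/6 (B6) males of 10 to 12 weeks. Rejecting kidneys were BALB/c kidneys, labelled as male and 6 to 7 weeks old, placed into B6 males whose own kidneys had both been removed, and they were taken on day 15. Tolerized kidneys were the same kind of graft in B6 males that also received BALB/c splenocytes treated with ethylenecarbodiimide (ECDI), an agent that couples proteins and leads the cells to die by apoptosis, by vein 7 days before and 1 day after transplantation. Naive and transplanted kidneys therefore differed in strain, age, surgery, gene list, and the version given in the matrix header, which cannot be told apart, whereas rejecting and tolerized kidneys differed by the label of treatment only. The study's supplement divides the kidneys between 2 experiments, but the labels do not say which kidney belongs to which, so experiments could not be compared and p-values measure only the spread between these kidneys.

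Endothelial cells carry the first donor antigens that circulating T cells of a recipient meet. Interferon gamma from T cells acts on them through its receptor, which turns on the transcription factor Irf1, guanylate-binding proteins, the chemokines Cxcl9 and Cxcl10, MHC class I, and, through the transactivator Ciita, MHC class II. In the kidney they are not all alike, because the fenestrated endothelium of the glomerulus, marked by Ehd3 and Plat, differs from that of arteries, of the vasa recta of the medulla, and of the capillaries around the tubules, where Plvap forms the diaphragms of fenestrae.

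The members were chosen by their UMI counts of these 10 genes, whose levels are therefore given as a description, with no test. Levels are CPM, the UMIs of a gene per 1000000 UMIs summed over the members of 1 kidney, after TMM scaling, which evens out differences in composition between libraries. Emcn, which encodes a sialomucin of capillaries and veins, had 2314 and 2407 CPM in naive, 3455 and 1553 CPM in rejecting, and 4115 and 3604 CPM in tolerized kidneys. Kdr, the main VEGF receptor, had 613 and 643 CPM in naive, 917 and 407 CPM in rejecting, and 990.1 and 1158 CPM in tolerized kidneys. Plvap had 57.7 and 118 CPM in naive, 415 and 727 CPM in rejecting, and 259.8 and 124 CPM in tolerized kidneys. Plvap was thus highest in the rejecting kidneys, and a UMI of it was found in 11.4% and 16.3% of naive, 33.3% and 64.7% of rejecting, and 30.1% and 16.7% of tolerized members. The median member held 16 and 17 UMIs of the 6 genes in naive kidneys, 25 and 43 UMIs in rejecting ones, and 58 and 50 UMIs in tolerized ones. Just inside the limit of 3 UMIs were 6 and 4, 6 and 1, and 5 and 5 members, and just outside it, with 2 genes and 2 UMIs, were 3 and 3, 7 and 3, and 9 and 5 barcodes. The positive part alone was met by 322 and 276 naive, 173 and 77 rejecting, and 287 and 265 tolerized barcodes, where naive and tolerized kidneys overlapped. The genes that had to be absent removed more: of the barcodes that met the positive part, 39 and 53 naive, 23 and 9 rejecting, and 47 and 76 tolerized barcodes were left out for a single UMI of them.

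Other endothelial genes fitted the label. Of 28 identity genes that the rule did not use, each was detected in the members of every kidney, and their summed level lay between 11737 and 14801 CPM before TMM scaling. Esam, an adhesion molecule of endothelial junctions, was at 430.1 and 523 CPM in naive, 453 and 495 CPM in rejecting, and 518 and 402 CPM in tolerized kidneys, and Icam2, which is held by resting endothelium, was at 668 and 726 CPM in naive, 694 and 689.6 CPM in rejecting, and 624 and 717 CPM in tolerized kidneys. The groups overlapped for both genes. Of 7 lymphatic genes Flt4, which fenestrated capillaries also express, was at 28.9 and 39.5 CPM in naive, 45.5 and 50.9 CPM in rejecting, and 62.1 and 42.9 CPM in tolerized kidneys, and the others were low or absent. Ccl21a and Mmrn1 had no UMI in any kidney, Lyve1 was at 0 and 9.87 CPM in naive, 0 and 2.31 CPM in rejecting, and 0 and 1.19 CPM in tolerized kidneys, and Prox1 was at 7.22 and 0 CPM, 1.57 and 0 CPM, and 1.43 and 2.38 CPM. A UMI of Ehd3, a membrane-trafficking gene of glomerular endothelium, was found in 155 of 245 and 133 of 203 naive, 66 of 111 and 21 of 51 rejecting, and 114 of 176 and 102 of 132 tolerized members. After thinning to 1000 UMIs per cell the shares were 56.3% and 55.7%, 36.4% and 20.4%, and 40.0% and 59.3%. Types that should lack Ehd3 had a UMI, before thinning, in 0.601 to 1.60% of proximal tubule cells of the 6 kidneys and in 4.71 to 9.90% of T cells of the grafts.

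Endothelial cells took the smallest share of the barcodes in rejecting kidneys. They were 3.39% (95% exact binomial interval 2.99 to 3.84%) and 3.35% (2.91 to 3.84%) of the barcodes within the limits in naive kidneys, 0.946% (0.778 to 1.14%) and 0.631% (0.470 to 0.829%) in rejecting kidneys, and 1.79% (1.54 to 2.07%) and 1.92% (1.61 to 2.27%) in tolerized kidneys. No 2 of the groups overlapped, and the means were 3.37 ± 0.0293%, 0.788 ± 0.222%, and 1.86 ± 0.0892% (SD, n = 2). Infiltrating leukocytes change such a share, so it was also taken among barcodes with no UMI of Ptprc or Cd3e, where the means were 3.48 ± 0.00169% in naive, 2.25 ± 0.0968% in rejecting, and 3.17 ± 0.403% in tolerized kidneys (SD, n = 2), again with no overlap. An exact permutation test, two-sided, gave p = 0.333 for each pair of groups and for both denominators, which is the smallest value that 2 kidneys against 2 allow. The second share depended on the limits. With at least 1500 UMIs the means were 3.51, 2.92, and 3.18% in naive, rejecting, and tolerized kidneys, rejecting minus naive was -0.582 instead of -1.23 percentage points, and tolerized kidneys overlapped naive (exact permutation p = 1) and rejecting kidneys (exact permutation p = 0.667). Tolerized and naive kidneys also overlapped without called doublets (exact permutation p = 1) and with a stricter rule (exact permutation p = 0.667), and with at most 20% mitochondrial UMIs the means were 8.65, 3.51, and 4.97% with no overlap. The intervals cover counting error only, and cells lost in dissociation and cells absent from the kidney cannot be told apart.

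**Figure D1:**
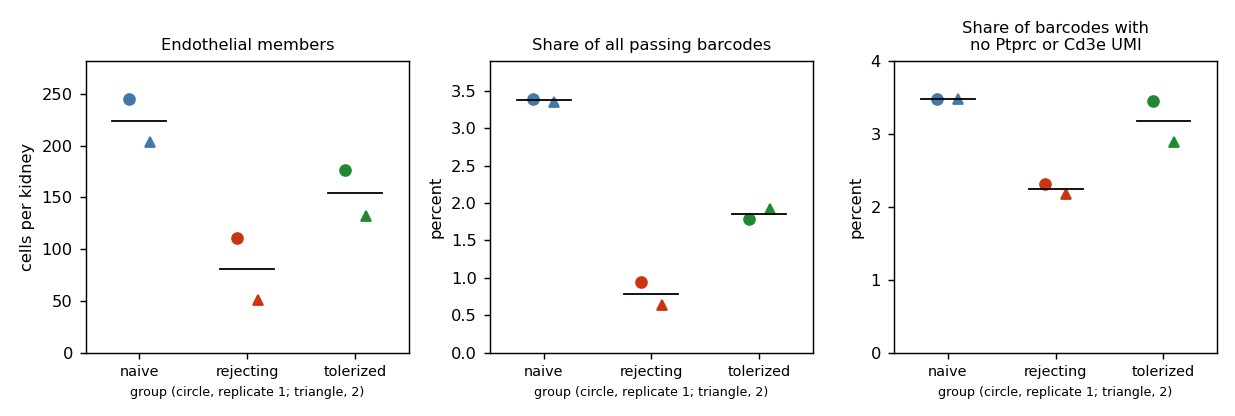
Endothelial members in each kidney, as a number (left), as a percent of all barcodes within the quality limits (middle), and as a percent of those with no UMI of Ptprc or Cd3e (right). Each point is 1 kidney and each line the mean of 2, and rejecting kidneys lie lowest in all 3 panels, at 111 and 51 members.

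Depth differed between the libraries and bears on every share of cells given below. Naive members held a median of 2115 and 2436 UMIs, rejecting members of 3877 and 6432 UMIs, and tolerized members of 6510 and 5745.5 UMIs. Summed over members, 692744 and 719850, 629584 and 425547, and 1372967 and 868828 UMIs were available for the genes shared by all libraries. The shallowest naive members held 1547 and 1347 UMIs, whereas transplanted kidneys had members down to 547 UMIs. The libraries may have been filtered differently before the limits used here, which was not tested. No barcode that was a member in 1 kidney was a member in another. Naive libraries shared 111 barcodes and pairs of transplanted libraries 18 to 35, and 3 members of naive replicate 1 had a barcode that also stood in naive replicate 2.

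Summed counts of the members were compared between the groups with edgeR's quasi-likelihood test in 1 fit of all 6 kidneys, and each adjusted p below is from this test with Benjamini-Hochberg adjustment over 8223 genes. Between rejecting and naive kidneys, 1235 genes or 15% passed an adjusted p of 0.05, 633 of them (7.70%) higher and 602 (7.32%) lower in rejecting kidneys. Between tolerized and naive kidneys 811 genes or 9.86% passed, 430 of them (5.23%) higher and 381 (4.63%) lower. These comparisons share the naive kidneys, and 354 of the genes that were higher and 277 of those that were lower passed in both. The counts rested on both naive kidneys, since 307 and 164 genes passed for rejecting kidneys and 135 and 84 for tolerized kidneys without naive replicate 1 and naive replicate 2, and 224 passed for tolerized kidneys without tolerized replicate 1. Each fit without a kidney, here and below, left 1 kidney in its group, so the spread came from the other groups. Between tolerized and rejecting kidneys 4 genes or 0.0486% passed, while 599 had an unadjusted p under 0.05 and DESeq2 called 24. The first axis of a principal component analysis, with 61.9% of the variance, set both naive kidneys apart from all 4 transplanted kidneys, and tolerized replicate 2 lay nearest to them.

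The interferon gamma response was the list with the largest share of called genes. Of its 26 tested genes, 24 were higher in rejecting than in naive members and 24 in tolerized than in naive members, and none was lower. The median log2 fold change was 3.31 in rejecting and 2.46 in tolerized kidneys, or 3.26 and 2.36 with genes at 0 in all naive members set to their bound, against 0.02 for all genes in both comparisons. Without naive replicate 1 or 2 the counts were 21 and 19 of 26 for rejecting and 10 and 8 of 26 for tolerized kidneys, and 16 for tolerized kidneys without tolerized replicate 1. Without a naive kidney the medians lay between 2.43 and 3.41. Irf1, a transcription factor that interferon gamma induces, had 77.9 and 50.8 CPM in naive, 339 and 268 CPM in rejecting, and 259 and 237 CPM in tolerized kidneys. All transplanted kidneys stood above both naive kidneys, and the log2 fold change over naive was 2.24 ± 0.29 (SE, adjusted p = 0.00166) in rejecting and 1.95 ± 0.28 (SE, adjusted p = 0.00429) in tolerized members.

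Effector genes of this response were also higher in grafts. Gbp4, a guanylate-binding GTPase of cell-autonomous defence, had 33.2 and 39.5 CPM in naive, 1274 and 1932 CPM in rejecting, and 846 and 608 CPM in tolerized kidneys. Its log2 fold change was 5.46 ± 0.36 (SE, adjusted p = 0.000114) in rejecting and 4.32 ± 0.35 (SE, adjusted p = 0.000296) in tolerized members. Gbp2, of the same family, had 27.4 and 50.8 CPM in naive, 368 and 458 CPM in rejecting, and 196 and 106 CPM in tolerized kidneys. Iigp1, an immunity-related GTPase, had 101 and 111 CPM in naive, 978 and 1877 CPM in rejecting, and 1453 and 905 CPM in tolerized kidneys. Rejecting members were above tolerized members in both kidneys for Gbp4 and Gbp2, whereas the groups overlapped for Iigp1. Gbp2b, Ubd, and Cxcl9 had no UMI in any naive member, so that their folds are lower bounds against a floor of 3 UMIs in each naive kidney. Gbp2b, another guanylate-binding protein, had 411 and 551 CPM in rejecting and 251 and 175 CPM in tolerized kidneys, at least 115-fold and at least 49.99-fold higher. Ubd, a ubiquitin-like modifier that sends proteins to the proteasome, had 738 and 537 CPM and 166 and 142 CPM, at least 152-fold and at least 36.0-fold higher.

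Promoters are shown for 4 of these genes because letters of known interferon elements stood in them. RefSeq promoter windows of GRCm38.p6, from 250 bases before to 50 bases after each start, were searched on both strands for TTCNNNGAA, the letters of a GAS element, known from genes that interferon gamma induces, and for the core of an ISRE, bound by interferon regulatory factors. For the interferon gamma list 18 genes had windows, 22 in all, of which 11 or 50% held the first motif and 11 the second, against 8.30% and 3.44% of all 32851 windows. Of 19 windows of 17 MHC class I genes 2 held the first motif and 5 or 26.3% the second, and of 9 windows of 8 MHC class II genes 1 held each. The window of Cxcl9 held neither. The 250 bases before the start are printed 5′ to 3′ on the strand of the gene, with the motif in capitals, and B2m, described with MHC class I below, is shown as a gene with the motif that did not pass the test. A match is a description of letters and not evidence of binding.
Irf1, chr11:53769764-53770013 (forward strand): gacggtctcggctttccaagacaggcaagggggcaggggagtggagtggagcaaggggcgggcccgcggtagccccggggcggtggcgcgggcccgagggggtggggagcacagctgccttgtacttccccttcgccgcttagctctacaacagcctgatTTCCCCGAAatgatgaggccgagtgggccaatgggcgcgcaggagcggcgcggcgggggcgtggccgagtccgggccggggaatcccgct
Gbp2, chr3:142620413-142620662 (forward strand): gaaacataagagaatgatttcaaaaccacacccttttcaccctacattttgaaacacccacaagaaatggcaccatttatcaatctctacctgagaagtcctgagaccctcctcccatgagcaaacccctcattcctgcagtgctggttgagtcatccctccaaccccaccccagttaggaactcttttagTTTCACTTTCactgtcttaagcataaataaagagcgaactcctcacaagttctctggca
Cxcl10, chr5:92348890-92349139 (reverse strand): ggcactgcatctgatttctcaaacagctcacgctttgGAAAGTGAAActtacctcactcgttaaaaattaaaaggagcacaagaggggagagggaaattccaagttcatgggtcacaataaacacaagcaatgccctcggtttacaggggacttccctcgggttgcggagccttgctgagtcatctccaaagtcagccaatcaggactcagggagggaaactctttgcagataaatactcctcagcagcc
B2m, chr2:122147437-122147686 (forward strand): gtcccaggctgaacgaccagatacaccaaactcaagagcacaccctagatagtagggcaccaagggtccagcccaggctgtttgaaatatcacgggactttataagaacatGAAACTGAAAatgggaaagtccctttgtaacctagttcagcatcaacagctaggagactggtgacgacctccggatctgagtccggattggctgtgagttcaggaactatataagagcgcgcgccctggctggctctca
The first motif of Irf1 began 90 bases before the start, and the second motif began 59 bases before it in Gbp2, 213 bases in Cxcl10, and 139 bases in B2m.

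MHC class II genes were low in naive members and far higher in both kinds of graft. Of 9 tested genes 8 were higher in rejecting than in naive members and 8 in tolerized than in naive members, against 7.70% and 5.23% of all genes. The median log2 fold changes were 4.84 and 3.65, or 4.81 and 3.56 with genes at 0 set to their bound. These counts were 8 and 8 for rejecting and 5 and 5 for tolerized kidneys without naive replicate 1 or 2. Cd74, the invariant chain that guides class II molecules, had 12.99 and 158 CPM in naive, 3704 and 4304 CPM in rejecting, and 1648 and 1499.8 CPM in tolerized kidneys. No 2 groups overlapped, and the log2 fold change was 5.54 ± 0.80 (SE, adjusted p = 0.00287) in rejecting and 4.20 ± 0.75 (SE, adjusted p = 0.0103) in tolerized members. Naive Cd74 rested on few cells, as 8 and 12 members had a UMI and 1 member held 59 of the 112 UMIs of naive replicate 2. H2-Ab1, the beta chain of I-A, had 7.22 and 64.9 CPM in naive, 1163 and 1553 CPM in rejecting, and 669.6 and 689 CPM in tolerized kidneys, with log2 fold changes of 5.22 ± 0.66 (SE, adjusted p = 0.00156) and 4.22 ± 0.64 (SE, adjusted p = 0.00487). H2-Eb1, the beta chain of I-E, had 0 and 28.2 CPM in naive, 1129 and 1180.1 CPM in rejecting, and 548 and 521 CPM in tolerized kidneys. Ciita, the transactivator that controls the class II genes, had no UMI in naive members and 113 and 123 CPM in rejecting and 40.7 and 17.9 CPM in tolerized kidneys, at least 28.1-fold and at least 6.92-fold higher. All counts of MHC genes are uncertain in size, because reads of BALB/c grafts were aligned to the mm10 reference, which is of the B6 strain, and because class I genes have near-identical copies.

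Cd74 was found in a larger share of members in all grafts than in naive kidneys. After each cell was thinned to 1000 UMIs, which left out 12 and 2 rejecting and 6 and 9 tolerized members, Cd74 was found in 1.63% (0.447 to 4.13%) and 3.94% (1.72 to 7.62%) of naive, 79.8% (70.5 to 87.2%) and 81.6% (67.98 to 91.2%) of rejecting, and 52.9% (45.1 to 60.6%) and 39.8% (31.1 to 49.1%) of tolerized members, with 95% exact binomial intervals in parentheses. Before thinning the shares were 3.27% and 5.91%, 91.9% and 88.2%, and 81.2% and 70.5%. T cells of the same libraries, a type that holds little class II, were set beside the members. They were taken as barcodes with at least 2 of Cd3d, Cd3e, Cd3g, Trac, and Trbc2 and at least 3 UMIs of them, and no UMI of Kdr, Emcn, Egfl7, Plvap, Slc12a1, Lrp2, Cd79a, or C1qa, a gate chosen after the data were seen. In them 45.1% (42.3 to 47.9%) and 15.9% (14.4 to 17.6%) of rejecting and 17.8% (15.7 to 20.2%) and 21.8% (18.2 to 25.8%) of tolerized cells had a thinned UMI of Cd74, at median depths of 1778 and 2780 and of 4663 and 4844 UMIs. Endothelial shares were above these in every transplanted kidney, but the gate left out each T cell with a UMI of C1qa or Cd79a, a filter that the members did not have, so these shares can understate the free RNA of macrophages and B cells, and its part was not tested. Before TMM scaling, the T cells held 1013 and 556 CPM in rejecting and 497 and 279 CPM in tolerized kidneys, against 3753 and 4371 CPM and 1681 and 1450 CPM in the members.

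Markers of other antigen-presenting cells were also found in members. C1qa, a complement gene of macrophages, was at 0 and 7.05 CPM in naive, 102 and 13.9 CPM in rejecting, and 16.4 and 3.57 CPM in tolerized kidneys, and Lyz2, a lysozyme of myeloid cells, was at 21.6 and 22.6 CPM in naive, 271 and 48.6 CPM in rejecting, and 48.5 and 34.5 CPM in tolerized kidneys. Both passed the test between rejecting and naive kidneys and were highest in rejecting replicate 1, where 45 and 79 of 111 members had a UMI and no member held more than 5 and 12. In the T cells of that kidney, the 14 genes of the macrophage list summed to 3544 CPM before TMM scaling, against 1376 CPM in the members, of which 575 CPM were Cst3, a gene that many cell types express. All 3 C1q genes and Adgre1 were at 0 in naive replicate 1. In a further fit, every member with a UMI of a T cell, B cell, or macrophage marker other than Cst3 and Cd68 was left out. There 1 and 9 rejecting and 65 and 34 tolerized members remained. In tolerized kidneys 8 of 8 tested class II genes passed, when 713 of all 4808 genes passed in either direction. Rejecting replicate 1 was then a single barcode, too few for a comparison of rejecting kidneys, and the part of these markers in the class II level was not tested.

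**Figure D2:**
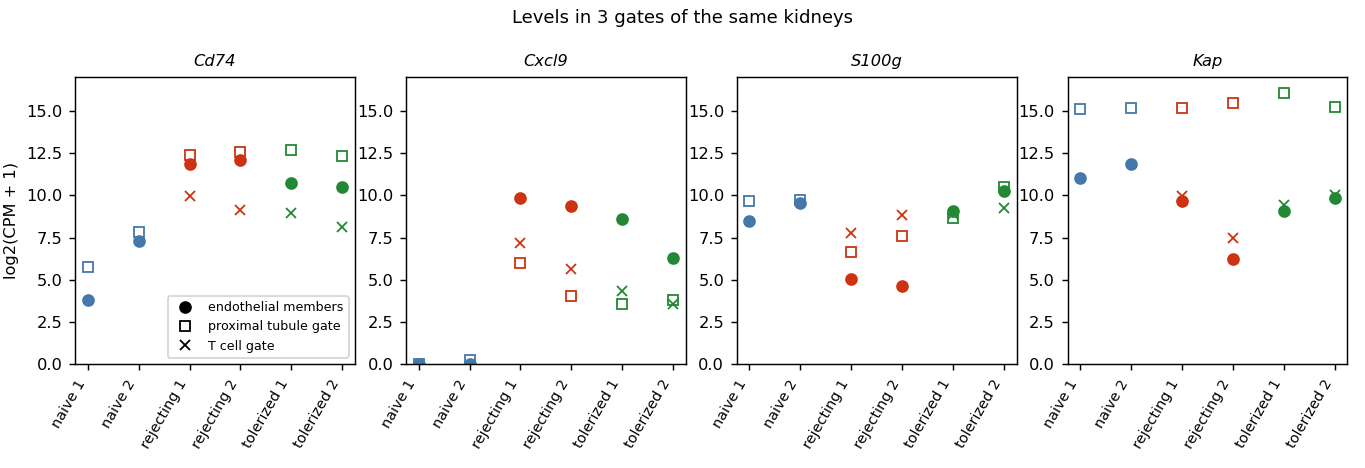
Levels of named genes in endothelial members, proximal tubule cells, and T cells of each kidney, on a log2(CPM + 1) axis, where each point is 1 kidney and T cells of naive kidneys (27 and 31 cells) are left out. Endothelial and T cell levels are before and proximal tubule levels after TMM scaling, and in each transplanted kidney Cd74 was higher in endothelial members than in T cells and highest in proximal tubule cells.

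Most tested genes of MHC class I presentation were higher in both kinds of graft. Of 21 tested genes 15 were higher in rejecting and 13 in tolerized than in naive members, against 7.70% and 5.23% of all genes. The medians were 2.31 and 1.54. With naive replicate 1 or 2 left out these counts were 9 and 12 for rejecting and 3 and 3 for tolerized kidneys, and among tolerized members with no UMI of a leukocyte marker 12 of 20 passed. In that last fit, without leukocyte markers, 713 of all 4808 genes passed for tolerized against naive kidneys in either direction. H2-K1, a classical heavy chain, had 657 and 769 CPM in naive, 6032 and 5926 CPM in rejecting, and 5497 and 4641 CPM in tolerized kidneys, with log2 fold changes of 3.07 ± 0.26 (SE, adjusted p = 0.000389) and 2.83 ± 0.25 (SE, adjusted p = 0.000495). H2-D1, the other classical heavy chain, had 1707 and 1749 CPM in naive, 5963 and 11500.3 CPM in rejecting, and 6905 and 7919 CPM in tolerized kidneys. H2-T23, which presents leader peptides to natural killer cells, had 30.3 and 73.4 CPM in naive, 401 and 1217 CPM in rejecting, and 408 and 690.4 CPM in tolerized kidneys. For these 3 genes both transplanted groups stood above the naive kidneys, and rejecting and tolerized kidneys overlapped for H2-D1 and H2-T23. Nlrc5, the transactivator of class I genes, rose from 2.89 and 5.64 CPM to 32.9 and 46.3 CPM in rejecting and 33.6 and 19.04 CPM in tolerized kidneys, with log2 fold changes of 3.14 ± 0.56 (SE, adjusted p = 0.0072) and 2.62 ± 0.55 (SE, adjusted p = 0.0187). B2m, the light chain shared by class I molecules, had 2097 and 3094 CPM in naive, 2792 and 4105 CPM in rejecting, and 2455 and 3167 CPM in tolerized kidneys, and the groups overlapped. Its log2 fold change over naive kidneys was 0.41 ± 0.30 (SE, adjusted p = 0.379) in rejecting and 0.11 ± 0.30 (SE, adjusted p = 0.83) in tolerized kidneys, and neither passed the test.

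**Figure D3:**
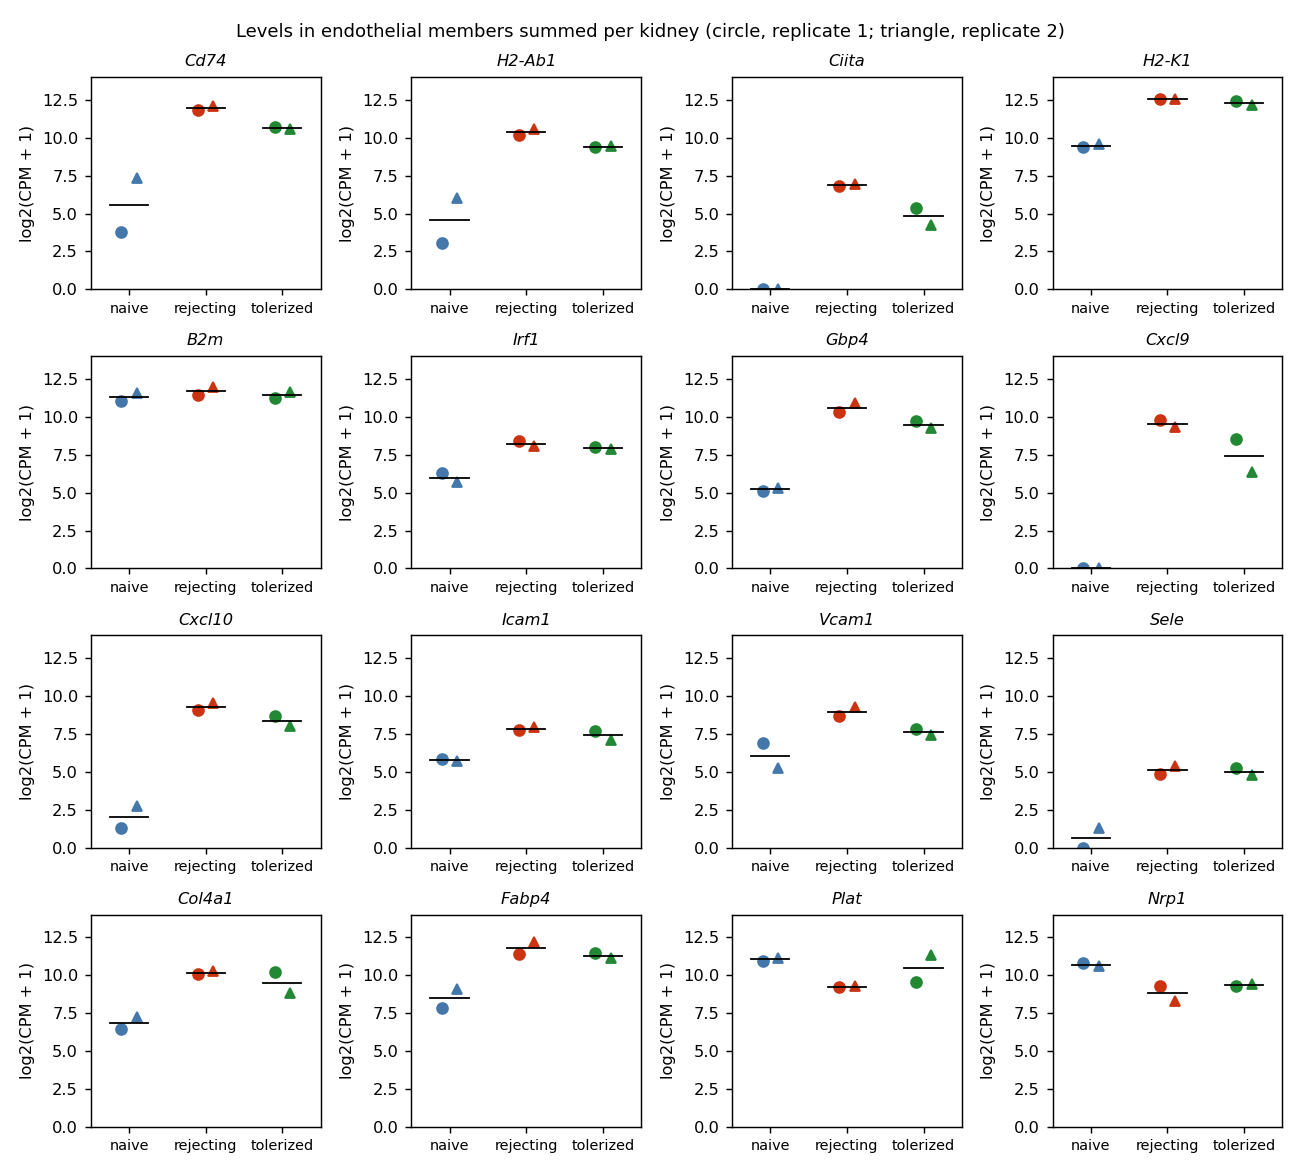
Levels of genes named in the text in endothelial members of each kidney, on a log2(CPM + 1) axis, where each point is 1 kidney and each line the mean of the 2 log values. Ciita and Cxcl9 were at 0 CPM in both naive kidneys and above 0 in all 4 transplanted kidneys.

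Chemokines that draw activated T cells were among the largest changes. Cxcl9 and Cxcl10 are ligands of Cxcr3, a receptor of activated T cells. Cxcl9 had no UMI in naive members and 897 and 639 CPM in rejecting and 371 and 80.9 CPM in tolerized kidneys, at least 183-fold and at least 53.8-fold higher. Few cells held most of it, as 49 and 12 rejecting and 15 and 8 tolerized members had a UMI and the richest member held 36.4% and 30.1%, and 48.8% and 64.7%, of all UMIs. Cxcl10 had 1.44 and 5.64 CPM in naive, 533 and 757 CPM in rejecting, and 402 and 258 CPM in tolerized kidneys, with log2 fold changes of 7.43 ± 0.51 (SE, adjusted p = 0.000114) and 6.47 ± 0.51 (SE, adjusted p = 0.000296). Of 11 tested chemokine genes 6 were higher in rejecting members, namely Ccl2, Ccl5, Ccl8, Cxcl10, Cxcl16, and Cxcl9, and 2 in tolerized members, Cxcl10 and Cxcl9, and without naive replicate 1 or 2 these were 3 and 2 and 1 and 1. Among all genes 7.70% were higher in rejecting and 5.23% in tolerized members. Before TMM scaling the 17 genes of the list summed to 2589 and 2197 CPM in rejecting and 1146 and 548 CPM in tolerized members, against 7630 and 8159 CPM and 8032 and 5521 CPM in the T cells of the same kidneys. After thinning, Cxcl9 was found in 23.2% (15.3 to 32.8%) and 14.3% (5.94 to 27.2%) of rejecting and 4.71% (2.05 to 9.06%) and 2.44% (0.506 to 6.96%) of tolerized members, and in 13.3% (11.5 to 15.3%) and 2.63% (1.99 to 3.41%) of rejecting and 2.04% (1.31 to 3.02%) and 1.03% (0.335 to 2.38%) of tolerized T cells, and the part of free or leukocyte RNA was not tested. Cxcl12, which acts on Cxcr4 and is made by arterial endothelium, was lower in tolerized members, at 89.5 and 107 CPM in naive, 37.6 and 69.4 CPM in rejecting, and 21.4 and 44.04 CPM in tolerized kidneys, with a log2 fold change of -1.63 ± 0.40 (SE, adjusted p = 0.0326). Ccl2, a chemokine for monocytes, had 0 and 0 CPM in naive, 67.4 and 345 CPM in rejecting, and 2.86 and 1.19 CPM in tolerized kidneys, but a single member held 42 of 43 UMIs in rejecting replicate 1 and 145 of 149 in rejecting replicate 2.

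Adhesion molecules changed in part. Of 11 tested genes 3 were higher in rejecting and 2 in tolerized than in naive members, against 7.70% and 5.23% of all genes. None was lower, and the medians were 0.05 and -0.05. Without naive replicate 1 or 2 the counts were 3 and 1 in rejecting and 1 and 1 in tolerized members. Icam1, the ligand of leukocyte LFA-1, had 57.7 and 50.8 CPM in naive, 218 and 245 CPM in rejecting, and 211 and 137 CPM in tolerized kidneys, with log2 fold changes of 2.09 ± 0.30 (SE, adjusted p = 0.00272) and 1.68 ± 0.29 (SE, adjusted p = 0.0094). Vcam1, the ligand of VLA-4, had 118 and 36.7 CPM in naive, 406 and 627 CPM in rejecting, and 228 and 170.2 CPM in tolerized kidneys, and passed for rejecting kidneys with 2.73 ± 0.47 (SE, adjusted p = 0.00648) but not for tolerized kidneys. Sele, the selectin on which leukocytes roll, had 0 and 1.41 CPM in naive, 28.2 and 41.7 CPM in rejecting, and 37.1 and 26.2 CPM in tolerized kidneys, with log2 fold changes of 5.30 ± 0.77 (SE, adjusted p = 0.00302) and 5.21 ± 0.74 (SE, adjusted p = 0.00375). Selp, the other endothelial selectin, was not tested, with 3.14 and 0 CPM in rejecting and 6.42 and 0 CPM in tolerized kidneys and no UMI in naive members. Tolerized and rejecting kidneys differed by a log2 of -0.40 ± 0.27 (SE, adjusted p = 0.841) for Icam1 and -1.36 ± 0.44 (SE, adjusted p = 0.474) for Vcam1, and neither passed.

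The checkpoint ligand Cd274, known as PD-L1, rose with the interferon genes. It had 2.89 and 4.23 CPM in naive, 54.9 and 67.1 CPM in rejecting, and 39.3 and 38.1 CPM in tolerized kidneys, with log2 fold changes of 4.03 ± 0.43 (SE, adjusted p = 0.000849) and 3.38 ± 0.43 (SE, adjusted p = 0.00251). Tnfsf10, the death ligand TRAIL, had 28.9 and 29.6 CPM in naive, 276 and 199 CPM in rejecting, and 174 and 145 CPM in tolerized kidneys, with log2 fold changes of 3.02 ± 0.30 (SE, adjusted p = 0.000596) and 2.45 ± 0.29 (SE, adjusted p = 0.00181). Both groups of transplanted kidneys stood above the naive kidneys for both ligands. These were 2 of 4 tested genes of the costimulation and checkpoint list in both comparisons, against 7.70% and 5.23% of all genes. Of the type I interferon response, 10 of 20 tested genes were higher and 1 lower in rejecting members (median 1.20) and 4 higher and 1 lower in tolerized members (median 0.84), and without naive replicate 1 or 2 the higher genes were 3 and 3 and 1 and 1. Among all genes 7.70% were higher and 7.32% lower in rejecting members, and 5.23% and 4.63% in tolerized members. The 1 lower gene is thus near the share of all genes. The lower gene was Ly6e, a surface protein of many cells, which fell from 1799.8 and 2223 CPM to 889 and 798 CPM in rejecting and 807 and 619 CPM in tolerized kidneys, with log2 fold changes of -1.25 ± 0.26 (SE, adjusted p = 0.0123) and -1.49 ± 0.26 (SE, adjusted p = 0.00908). Of 13 tested genes of NF-kB feedback and TNF response, 1 rose in rejecting members, a share near the 7.70% of all genes, namely Nfkb2, a subunit of the alternative pathway, with 18.8 and 12.7 CPM in naive, 47.03 and 39.3 CPM in rejecting, and 26.4 and 22.6 CPM in tolerized kidneys, and none in tolerized members, and without naive replicate 1 or 2 none passed in either.

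**Figure D4:**
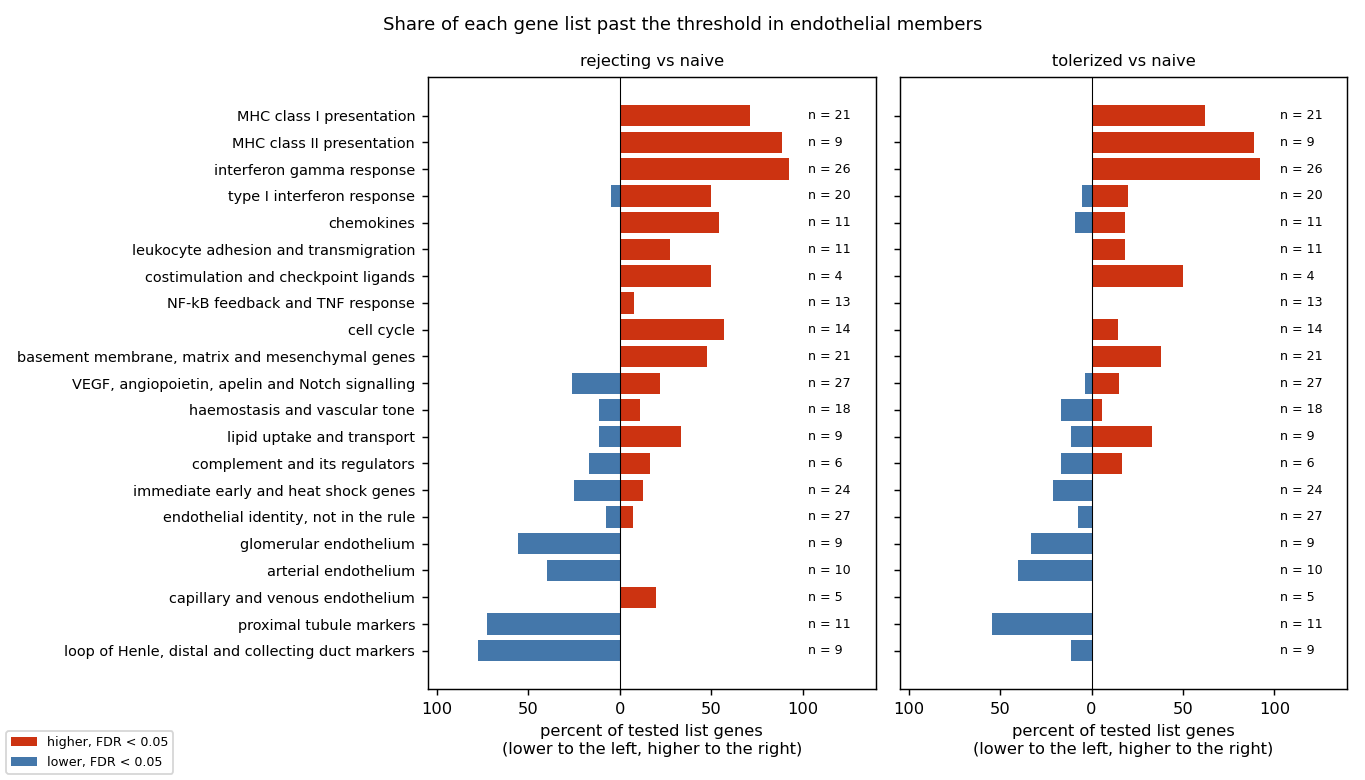
Percent of the tested genes of each list that passed an adjusted p of 0.05 in edgeR's quasi-likelihood test, higher to the right and lower to the left, for rejecting against naive (left panel) and tolerized against naive members (right panel). The number of tested genes stands at the right of each bar, and the interferon gamma list reaches 24 of 26 in both panels.

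In tolerized kidneys the levels of class II genes were lower in members with a UMI of the glomerular gene Ehd3 than in members without. In rejecting kidneys the ratios of these levels were smaller. Members were split by whether they held a UMI of Ehd3, a split picked with the data in view, and levels before TMM scaling are given with no test. In tolerized kidneys Cd74 was at 892 against 3929.8 CPM in replicate 1 and 761 against 3681 CPM in replicate 2, members with Ehd3 against members without. In rejecting kidneys it was at 3442 against 4771 CPM and 3251 against 5021 CPM. In naive kidneys, where few members held it, Cd74 was lower without Ehd3, with levels with and without it of 21.8 against 3.07 CPM and 256 against 39.1 CPM. The level without Ehd3 was 4.40 and 4.84 times that with Ehd3 in tolerized kidneys and 1.39 and 1.54 times in rejecting kidneys. For H2-Ab1 these ratios were 3.82 and 4.77 against 1.44 and 1.23, and for Ciita 4.21 and 4.85 against 2.21 and 2.495, while for H2-K1 they were 1.01 and 1.17 against 0.918 and 0.874. Genes outside class II went either way: in tolerized kidneys H2-D1 had ratios of 1.03 and 1.23, Cxcl10 was lower without Ehd3, at 0.756 and 0.460 (0.659 and 1.21 in rejecting kidneys), and 3 genes were higher, with ratios of 2.28 and 4.496 for Fabp4, 2.68 and 1.63 for Vcam1, and 1.54 and 2.08 for Gbp4, against 0.591 and 3.64, 2.53 and 1.41, and 1.57 and 0.845 in rejecting kidneys. Between rejecting and tolerized kidneys the levels of Cd74 lay further apart in members with Ehd3 than in members without, a difference that was not tested. Of rejecting members 45 and 30 lacked Ehd3, and of tolerized members 62 and 30. A UMI of Ehd3 is more easily missed in shallow cells, and median depths with and without Ehd3 were 5028.5 and 2262 UMIs in rejecting replicate 1, 6432 and 6483.5 UMIs in rejecting replicate 2, 7332.5 and 4576 UMIs in tolerized replicate 1, and 5851 and 4792.5 UMIs in tolerized replicate 2. The most abundant Cd74 member held 4.51% and 13.4% of the UMIs in tolerized kidneys. Among members with Ehd3 alone, Cd74 passed against naive kidneys with log2 fold changes of 4.51 (adjusted p = 0.0049) in rejecting and 2.53 (adjusted p = 0.049) in tolerized kidneys, by edgeR's quasi-likelihood test.

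**Figure D5:**
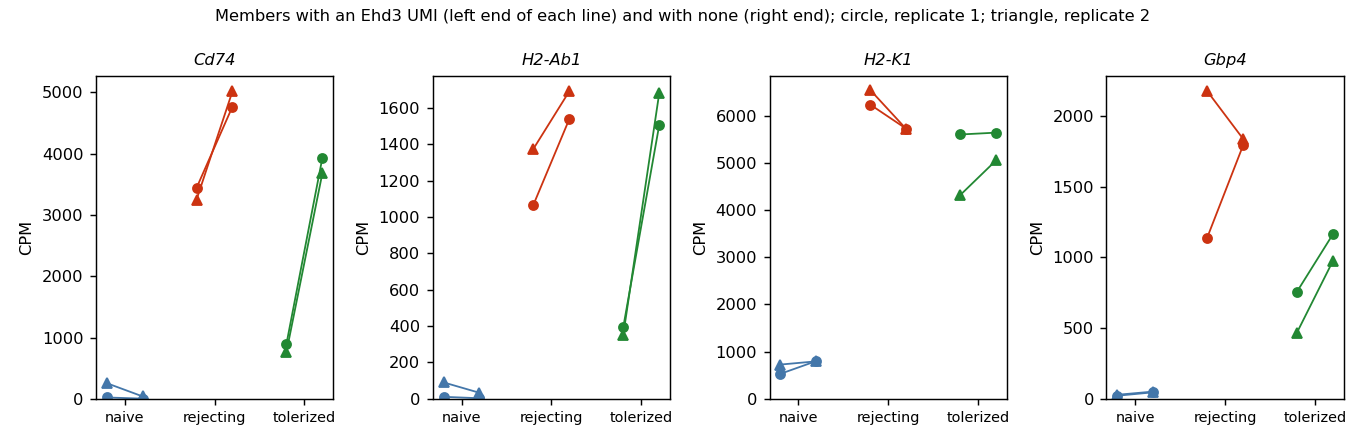
Levels before TMM scaling, in CPM on an axis that starts at 0, of members with a UMI of Ehd3 (left end of each line) and members without (right end) in each kidney. Cd74 rose from 892 to 3930 CPM and from 761 to 3681 CPM along the lines of the tolerized kidneys, while the ratio of right to left end was 0.874 to 1.17 for H2-K1 in the transplanted kidneys.

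Several genes of the glomerular endothelium were lower in rejecting members. Of 9 tested genes 5 fell in rejecting kidneys and 3 in tolerized kidneys, against 7.32% and 4.63% of all genes. None rose, and the medians were -1.60 and -0.33. Without naive replicate 1 or 2 the counts were 1 and 1 for rejecting and 0 and 0 for tolerized kidneys, and without tolerized replicate 1 none passed in tolerized kidneys. Among members with no UMI of a leukocyte marker, of 8 tested genes 1 fell and 1 rose in tolerized kidneys. In that fit 713 of all 4808 genes passed in either direction, and no more was read from these counts. A change in the mix of endothelial types and a change within each cell cannot be told apart in these sums. Plat, the tissue plasminogen activator, had 1972 and 2288 CPM in naive, 586 and 620.1 CPM in rejecting, and 765 and 2623 CPM in tolerized kidneys, and fell in rejecting kidneys by a log2 fold change of -1.82 ± 0.47 (SE, adjusted p = 0.0322). Tolerized replicate 2 was above the naive kidneys and tolerized replicate 1 was near the rejecting kidneys, and tolerized minus rejecting kidneys gave a log2 of 1.49 ± 0.47 (SE, adjusted p = 0.467), which did not pass. Lpl, the lipoprotein lipase, had 318 and 402 CPM in naive, 4.70 and 57.8 CPM in rejecting, and 20.7 and 59.5 CPM in tolerized kidneys, with log2 fold changes of -3.66 ± 0.73 (SE, adjusted p = 0.0116) and -3.22 ± 0.66 (SE, adjusted p = 0.0174). Tspan7, a tetraspanin, had 372 and 525 CPM in naive, 171 and 102 CPM in rejecting, and 166 and 238 CPM in tolerized kidneys, with log2 fold changes of -1.70 ± 0.33 (SE, adjusted p = 0.0101) and -1.15 ± 0.32 (SE, adjusted p = 0.0492). Sost, an inhibitor of Wnt signals, had 115 and 39.5 CPM in naive, 0 and 2.31 CPM in rejecting, and 0.714 and 10.7 CPM in tolerized kidneys. Ehd3 itself had 1326 and 1081 CPM in naive, 909 and 279.99 CPM in rejecting, and 1039 and 1445 CPM in tolerized kidneys, and its log2 fold change of -1.01 ± 0.45 (SE, adjusted p = 0.159) in rejecting kidneys did not pass. Among members with a UMI of Ehd3 alone, 5 of 8 tested genes of this list were lower in rejecting and 3 in tolerized kidneys. In that fit 893 and 596 of all 6710 genes passed in either direction.

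Some arterial genes were lower as well, in both kinds of graft, but not Mgp, the most abundant on average. Of 10 tested genes 4 fell in rejecting and 4 in tolerized members, with medians of -0.87 and -1.13, and without naive replicate 1 or 2 none passed in either. Among all genes 7.32% fell in rejecting and 4.63% in tolerized members. Mgp, a matrix protein that inhibits calcification and has the highest average level of the list, had 788 and 640.4 CPM in naive, 235 and 2953 CPM in rejecting, and 138 and 563 CPM in tolerized kidneys and passed in neither, with 1 member holding 88.2% of its UMIs in rejecting replicate 2. Efnb2 was the most abundant gene of the list in rejecting replicate 1, and Gja4 in tolerized replicate 1. The list summed to 3303 and 2723 CPM in naive, 1158 and 4192 CPM in rejecting, and 1081 and 1835 CPM in tolerized kidneys before TMM scaling, highest in that kidney. Fbln5, an elastic-fibre protein, had 756 and 532 CPM in naive, 34.5 and 159.7 CPM in rejecting, and 96.4 and 138 CPM in tolerized kidneys, with log2 fold changes of -2.78 ± 0.55 (SE, adjusted p = 0.0111) and -2.47 ± 0.52 (SE, adjusted p = 0.0196). Sox17, a transcription factor of arterial endothelium, had 761 and 635 CPM in naive, 224 and 312 CPM in rejecting, and 202 and 396 CPM in tolerized kidneys, with -1.38 ± 0.34 (SE, adjusted p = 0.0269) and -1.23 ± 0.34 (SE, adjusted p = 0.0499). Gja5, the connexin of arterial gap junctions, had 64.9 and 77.6 CPM in naive, 36.1 and 137 CPM in rejecting, and 87.8 and 52.4 CPM in tolerized kidneys, and the groups overlapped. In the vasa recta of the medulla, 2 of 3 tested genes were higher in rejecting members, against 7.70% of all genes, and none in tolerized members. Slc14a1, the urea transporter of descending vasa recta, had 4.33 and 0 CPM in naive, 187 and 169 CPM in rejecting, and 5.71 and 64.3 CPM in tolerized kidneys, with a log2 fold change of 6.28 ± 1.14 (SE, adjusted p = 0.00783) in rejecting kidneys. It rested on 6 and 10 rejecting members with a UMI, and the count of this list was 0 without naive replicate 1 or 2. Of 5 tested capillary and venous genes Apoe, which macrophages also express, alone passed, in rejecting members, with 85.2 and 94.5 CPM in naive, 256 and 183 CPM in rejecting, and 73.5 and 138 CPM in tolerized kidneys, and it did not pass without rejecting replicate 1 (adjusted p = 0.13 in edgeR's quasi-likelihood test). T cells of rejecting kidneys held 387 and 95.9 CPM of this list, and C1qa and Lyz2 were likewise highest in members of replicate 1, and their part in Apoe was not tested. Nr2f2, a transcription factor of veins, had 34.6 and 39.5 CPM in naive, 15.7 and 64.8 CPM in rejecting, and 15.7 and 46.4 CPM in tolerized kidneys with overlapping groups. Clec14a, an endothelial lectin, fell from 462 and 419 CPM to 43.9 and 150.4 CPM in rejecting and 31.4 and 47.6 CPM in tolerized kidneys, with log2 fold changes of -2.23 ± 0.46 (SE, adjusted p = 0.0132) and -3.50 ± 0.48 (SE, adjusted p = 0.00329). Of 27 tested identity genes 2 rose and 2 fell in rejecting members and 2 fell in tolerized members, shares near those of all genes (7.70% and 7.32%, and 4.63%), and without naive replicate 1 or 2 none passed in rejecting and 1 and 1 in tolerized members.

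Genes of vascular growth changed in both directions in rejecting members. Of 27 tested genes of VEGF, angiopoietin, apelin, and Notch signalling, 6 rose and 7 fell in rejecting members, against 7.70% and 7.32% of all genes, and 4 rose and 1 fell in tolerized members, against 5.23% and 4.63%, so that the 1 lower gene is no more than the share of all genes. With naive replicate 1 or 2 left out, 1 gene rose in rejecting members in each case, and no gene of the list passed in tolerized members. Aplnr, the apelin receptor, had 1.44 and 1.41 CPM in naive, 57.998 and 53.2 CPM in rejecting, and 42.8 and 17.9 CPM in tolerized kidneys, and its ligand Apln, known from tip cells, had 4.33 and 2.82 CPM in naive, 36.1 and 37.02 CPM in rejecting, and 64.96 and 20.2 CPM in tolerized kidneys. Their log2 fold changes were 5.14 ± 0.69 (SE, adjusted p = 0.00208) and 3.30 ± 0.75 (SE, adjusted p = 0.0197) in rejecting and 4.32 ± 0.71 (SE, adjusted p = 0.0073) and 3.58 ± 0.69 (SE, adjusted p = 0.0137) in tolerized members. Angpt2, the antagonist of Tie2 signalling, had 2.89 and 9.87 CPM in naive, 25.1 and 57.8 CPM in rejecting, and 25.7 and 10.7 CPM in tolerized kidneys and passed for rejecting kidneys with 2.61 ± 0.70 (SE, adjusted p = 0.0357). Nrp1, a co-receptor of VEGF, had 1799.8 and 1542 CPM in naive, 635 and 317 CPM in rejecting, and 639 and 687 CPM in tolerized kidneys, and fell with -1.81 ± 0.33 (SE, adjusted p = 0.00786) and -1.33 ± 0.32 (SE, adjusted p = 0.0322). Nrp2, its relative in veins and lymphatics, rose from 20.2 and 15.5 CPM to 73.7 and 92.6 CPM and 95.7 and 45.2 CPM. Hey1, a target of Notch, had 34.6 and 42.3 CPM in naive, 15.7 and 11.6 CPM in rejecting, and 34.98 and 46.4 CPM in tolerized kidneys, and fell in rejecting kidneys with -1.46 ± 0.39 (SE, adjusted p = 0.0363), whereas the tolerized kidneys overlapped the naive ones.

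Thrombomodulin fell in both kinds of graft. Thbd, the gene of thrombomodulin, which turns thrombin toward activation of protein C, had 290.1 and 377 CPM in naive, 159.9 and 189.7 CPM in rejecting, and 137 and 119 CPM in tolerized kidneys, with log2 fold changes of -0.94 ± 0.25 (SE, adjusted p = 0.0362) and -1.38 ± 0.25 (SE, adjusted p = 0.0106). Klf2, the transcription factor that laminar flow induces, had 3109 and 2464 CPM in naive, 1757 and 1803 CPM in rejecting, and 1445 and 1485 CPM in tolerized kidneys, and passed in tolerized kidneys with -0.93 ± 0.24 (SE, adjusted p = 0.0392). Klf2 is also in the immediate early and heat shock list given below, as 1 of its 5 lower genes in tolerized members. Procr, the receptor of protein C, had 25.98 and 32.4 CPM in naive, 72.1 and 261 CPM in rejecting, and 59.2 and 89.3 CPM in tolerized kidneys, and rose in rejecting kidneys with 2.47 ± 0.56 (SE, adjusted p = 0.0195). Ednrb, the endothelin receptor of endothelium, had 83.7 and 53.6 CPM in naive, 238 and 143 CPM in rejecting, and 253 and 214 CPM in tolerized kidneys, and rose in both with 1.49 ± 0.33 (SE, adjusted p = 0.0183) and 1.77 ± 0.33 (SE, adjusted p = 0.0113). Nos3, the nitric oxide synthase of endothelium, had 98.1 and 91.7 CPM in naive, 108 and 83.3 CPM in rejecting, and 59.96 and 54.8 CPM in tolerized kidneys and did not pass. In all, 2 of 18 tested genes of haemostasis and vascular tone rose and 2 fell in rejecting members, where 7.70% and 7.32% of all genes did, and 1 rose and 3 fell in tolerized members, where 5.23% and 4.63% of all genes did. No more was read from these counts, and without naive replicate 1 or 2 none passed in rejecting and 1 and 0 passed in tolerized members.

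Some genes of basement membrane, matrix, and mesenchyme rose in both kinds of graft. Of 21 tested genes 10 rose in rejecting and 8 in tolerized members, against 7.70% and 5.23% of all genes. None fell, and the medians were 1.10 and 1.06. The counts without naive replicate 1 or 2 were 3 and 2 of 24 tested genes in rejecting and 0 and 0 in tolerized members. Col4a1, a chain of collagen IV, had 86.6 and 149.5 CPM in naive, 1082 and 1217 CPM in rejecting, and 1164 and 448 CPM in tolerized kidneys, with log2 fold changes of 3.28 ± 0.46 (SE, adjusted p = 0.00269) and 2.77 ± 0.45 (SE, adjusted p = 0.00721), and Col4a2, its partner chain, had 59.2 and 104 CPM in naive, 651 and 710.4 CPM in rejecting, and 724 and 249.96 CPM in tolerized kidneys. Tolerized replicate 2 was the lowest of the transplanted kidneys for both chains. Sparc, which binds collagen in the matrix, had 990.1 and 1279 CPM in naive, 3463 and 3244 CPM in rejecting, and 3235 and 1754 CPM in tolerized kidneys and passed in rejecting kidneys with 1.56 ± 0.32 (SE, adjusted p = 0.0124). Vim, an intermediate filament, had 1139 and 1244 CPM in naive, 1911 and 4605 CPM in rejecting, and 2006 and 1526 CPM in tolerized kidneys, with 1.45 ± 0.38 (SE, adjusted p = 0.0337) in rejecting kidneys, of which replicate 2 was the higher. Col1a1, which fibroblasts express, was found in 2 of 51 members of rejecting replicate 2 with 80 UMIs, 64 of them in 1 member, and in no other kidney. The markers of stromal cells summed to 884 CPM in that kidney and to 38.1 to 186 CPM in the others, before TMM scaling. A fit added after seeing the data left out members with a UMI of Col1a1, Col1a2, Col3a1, Pdgfra, Pdgfrb, Dcn, or Lum, which kept 48 of 51 members of that kidney. There 1229 of 8119 genes passed for rejecting against naive kidneys, 1169 of them also in the fit of all members. The genes of this list were not counted there, so the part of stromal markers in these counts was not tested.

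Fabp4, Fabp5, and Gpihbp1, of the list of lipid uptake and transport, were higher in both kinds of graft. Fabp4, a fatty acid carrier of capillaries, had 225 and 556 CPM in naive, 2707 and 4649 CPM in rejecting, and 2858 and 2213 CPM in tolerized kidneys, with log2 fold changes of 3.23 ± 0.45 (SE, adjusted p = 0.00244) and 2.70 ± 0.44 (SE, adjusted p = 0.00717), and 1 member held 46.4% of its UMIs in rejecting replicate 2. Fabp5, a related carrier, had 40.4 and 36.7 CPM in naive, 449.9 and 775 CPM in rejecting, and 550.4 and 214 CPM in tolerized kidneys, with 3.98 ± 0.50 (SE, adjusted p = 0.00152) and 3.31 ± 0.49 (SE, adjusted p = 0.00436). Gpihbp1, which holds lipoprotein lipase on the capillary wall, had 159 and 214 CPM in naive, 741 and 794 CPM in rejecting, and 1076 and 721 CPM in tolerized kidneys, with 2.04 ± 0.29 (SE, adjusted p = 0.00284) and 2.27 ± 0.29 (SE, adjusted p = 0.00254). These 3 of 9 tested genes rose in both comparisons while Lpl fell, and without naive replicate 1 or 2 the higher genes numbered 3 and 3 in rejecting and 1 and 2 in tolerized members. Among all genes 7.70% rose and 7.32% fell in rejecting members, and 5.23% and 4.63% in tolerized members, and no more was read from the 1 lower gene. Fabp4 was found after thinning in 16.3% (11.9 to 21.6%) and 26.6% (20.7 to 33.2%) of naive, 64.6% (54.4 to 73.99%) and 63.3% (48.3 to 76.6%) of rejecting, and 58.2% (50.4 to 65.7%) and 47.2% (38.1 to 56.4%) of tolerized members, and in at most 1.27% of T cells of a transplanted kidney. Serping1, the inhibitor of complement C1, rose from 5.77 and 2.82 CPM to 293 and 282 CPM and 151 and 67.8 CPM, with log2 fold changes of 6.02 ± 0.54 (SE, adjusted p = 0.00044) and 4.65 ± 0.55 (SE, adjusted p = 0.0017). Cd59a, which blocks the membrane attack complex, fell from 123 and 147 CPM to 47.03 and 76.4 CPM and 52.8 and 55.9 CPM, with -1.15 ± 0.30 (SE, adjusted p = 0.0333) and -1.31 ± 0.29 (SE, adjusted p = 0.0224).

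Several cell cycle genes were higher in rejecting members. Mki67, a protein of dividing nuclei, had no UMI in any of the naive members, which are the shallowest, and a UMI in 9 of 111 and 5 of 51 rejecting and 13 of 176 and 2 of 132 tolerized members. Top2a, a topoisomerase of dividing cells, had one in 9 and 9 rejecting and 15 and 2 tolerized members. In T cells of the grafts the shares were 7.98 to 11.9% for Mki67 and 12.7 to 16.9% for Top2a, so no share of dividing endothelial cells was read from these counts. The level of Mki67 was 32.9 and 146 CPM in rejecting kidneys, at least 21.3-fold higher than in naive kidneys, and 52.8 and 2.38 CPM in tolerized kidneys, of which replicate 2 lay below the floor of 3 UMIs. Of 14 tested cell cycle genes 8 rose in rejecting and 2 in tolerized members, and without naive replicate 1 or 2 these were 1 and 1 and 0 and 0. Among all genes 7.70% rose in rejecting and 5.23% in tolerized members. With called doublets left out, 3 of 12 tested cell cycle genes rose in rejecting members, when 1017 of all 7855 genes passed in either direction. The medians of 3.98 and 2.68 became 2.63 and 1.08 with genes at 0 set to their bound. Immediate early and heat shock genes, which dissociation also induces, were lower in transplanted kidneys for 6 of 24 tested genes in rejecting and 5 in tolerized members, against 7.32% and 4.63% of all genes, and 3 were higher in rejecting members, against 7.70%. Dusp1, a phosphatase of MAP kinases, had 1723 and 1325 CPM in naive, 345 and 382 CPM in rejecting, and 654 and 627 CPM in tolerized kidneys, with log2 fold changes of -2.07 ± 0.25 (SE, adjusted p = 0.00139) and -1.25 ± 0.24 (SE, adjusted p = 0.014). Hspa1a, an inducible HSP70, had 2827 and 2110.3 CPM in naive, 721 and 1309.7 CPM in rejecting, and 456 and 601 CPM in tolerized kidneys, with -1.28 ± 0.33 (SE, adjusted p = 0.03) and -2.22 ± 0.34 (SE, adjusted p = 0.00492). Without naive replicate 1 or 2, 1 gene of this list fell in rejecting kidneys in each case, and 0 and 1 fell in tolerized kidneys.

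Few differences between tolerized and rejecting members exceeded the spread between kidneys. All 21 class I genes, all 9 class II genes, and 25 of 26 interferon gamma genes had a lower mean in tolerized members, with medians of -0.55, -1.13, and -0.83 against 0.01 for all genes, but none of them passed. Of these, 12, 8, and 19 were lower in tolerized kidneys without overlap, when 17.5% of all tested genes were. All 9 glomerular genes had a higher mean in tolerized members, with a median of 0.56, and 3 did not overlap, when 18% of all tested genes were higher without overlap. The log2 fold change was -1.35 ± 0.65 (SE, adjusted p = 0.744) for Cd74, -0.998 ± 0.53 (SE, adjusted p = 0.789) for H2-Ab1, -1.94 ± 0.38 (SE, adjusted p = 0.19) for Ciita, -1.75 ± 0.57 (SE, adjusted p = 0.507) for Cxcl9, -0.96 ± 0.32 (SE, adjusted p = 0.51) for Cxcl10, -0.44 ± 0.25 (SE, adjusted p = 0.798) for Thbd, and -0.51 ± 0.42 (SE, adjusted p = 0.888) for Col4a1. The sign turned for Col4a1, to 0.017, without tolerized replicate 2, and for Ciita, to 0.17, among members with no UMI of a leukocyte marker, where rejecting replicate 1 was a single barcode. With 67, 33, 88, and 9 calls when rejecting replicate 1, rejecting replicate 2, tolerized replicate 1, or tolerized replicate 2 was left out, the number of called genes depended on single kidneys.

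The 4 genes that passed between tolerized and rejecting members are known from tubules. Calb1, a calcium-binding protein of the distal tubule, had 80.8 and 127 CPM in naive, 3.14 and 2.31 CPM in rejecting, and 156 and 177 CPM in tolerized kidneys, with 5.81 ± 0.47 (SE, adjusted p = 0.00276) on the log2 scale. S100g, another calcium-binding protein there, had 362 and 766 CPM in naive, 31.4 and 23.1 CPM in rejecting, and 525 and 1253 CPM in tolerized kidneys, with 4.99 ± 0.56 (SE, adjusted p = 0.0198). Klk1, a kallikrein of the connecting tubule, had 156 and 449 CPM in naive, 9.41 and 18.5 CPM in rejecting, and 433 and 434 CPM in tolerized kidneys, with 5.01 ± 0.58 (SE, adjusted p = 0.0198). Defb1, a defensin of the distal nephron, had 259.8 and 172 CPM in naive, 9.41 and 4.63 CPM in rejecting, and 114 and 238 CPM in tolerized kidneys, with 4.53 ± 0.55 (SE, adjusted p = 0.0241). In tolerized replicate 1 a single member held 83.9% of the UMIs of Calb1, 83.2% of Klk1, 87.0% of S100g, and 75.5% of Defb1, and in tolerized replicate 2 these shares were 30.2%, 55.3%, 77.1%, and 32.0%. None of the 4 passed when called doublets were left out, with log2 fold changes of 5.08 for Calb1, 4.33 for Klk1, 4.52 for S100g, and 3.51 for Defb1, or when members had at most 20% mitochondrial UMIs, with 5.14, 3.27, 2.77, and 3.93. With the replicate number as a block Defb1 did not pass (adjusted p = 0.096 in edgeR's quasi-likelihood test). The T cells of the transplanted kidneys also held Calb1, at 46.7 and 107 CPM in rejecting and 85.4 and 188 CPM in tolerized kidneys, and S100g, at 216 and 455 CPM and 468 and 596 CPM, before TMM scaling.

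Tubular RNA was present in the members of all kidneys and differed between the groups. The 14 proximal tubule markers summed to 5895 and 9210 CPM in naive, 1372 and 160 CPM in rejecting, and 965 and 2041 CPM in tolerized members, before TMM scaling, and Kap, an androgen-regulated gene of the proximal tubule, was the most abundant of them in each kidney. In T cells of the same kidneys the sums were 4806 and 9550 CPM, 1527 and 319 CPM, and 1281 and 2363 CPM, where the naive values rest on 27 and 31 cells. Of 11 tested proximal tubule markers 8 were lower in rejecting and 6 in tolerized than in naive members, and of 9 tested distal markers 7 and 1, and none of either list was higher. Among all genes 7.32% were lower in rejecting and 4.63% in tolerized members. Dnase1 was among the 10 named genes with the largest decrease in both comparisons with naive kidneys, and Cyp2e1 in rejecting kidneys. T cell and natural killer cell markers summed to 251 and 58.7 CPM in rejecting, 21.1 and 12.7 CPM in tolerized, and 13.0 and 6.95 CPM in naive members, and podocyte markers to 241 and 242 CPM in naive and 69.9 to 117 CPM in transplanted kidneys. In tolerized replicate 2 the erythrocyte and platelet list reached 3964 CPM, and 1 member held 2234 of the 2302 UMIs of Hbb-bs, a globin. The part of these markers in the differences between groups was not tested.

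Some of the largest folds concerned genes whose counts can depend on the strain or the gene list. Gm45837 had 134 and 118 CPM in naive kidneys and no UMI in any transplanted kidney, and Tonsl, a DNA repair gene, had 222 and 219 CPM in naive, 1.57 and 0 CPM in rejecting, and 0.714 and 1.19 CPM in tolerized kidneys. Gm42418, which overlaps ribosomal RNA, had 206 and 288 CPM in naive, 16816 and 23706 CPM in rejecting, and 13307 and 57748 CPM in tolerized kidneys. Strain, library, and reference cannot be told apart here. Dock4, a regulator of small GTPases, had no UMI in naive members and 92.5 and 64.8 CPM and 67.1 and 55.9 CPM in rejecting and tolerized kidneys, at least 18.8-fold and at least 14.4-fold higher.

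The response of endothelial cells was set against that of proximal tubule cells of the same kidneys, which number 14854 by a rule of the same form. In a fit with kidney, cell type, and their interaction with group, the change between rejecting and naive kidneys differed between the 2 cell types for 607 of 12743 genes (4.76%), with 116 (0.910%) more positive and 491 (3.85%) more negative in endothelial cells. Between tolerized and rejecting kidneys 10 genes (0.0785%) differed, 8 (0.0628%) more positive and 2 (0.0157%) more negative. The first number was 319 and 332 without rejecting replicate 1 and 2 and 1081 and 1225 without tolerized replicate 1 and 2. For rejecting against naive kidneys DESeq2 called 379 genes, 132 of them more positive in endothelial cells. The median difference over all genes was -0.22, and 39.6% of genes were positive. Gbp4 had 33.2 and 39.5 CPM in naive, 1274 and 1932 CPM in rejecting, and 846 and 608 CPM in tolerized kidneys in endothelial members and 0 and 0.192 CPM, 180.9 and 182 CPM, and 126 and 189 CPM in proximal tubule cells. The difference of the log2 fold changes passed at -5.56 ± 0.74 (SE, adjusted p = 0.000222), a value that depends on the prior count because naive proximal tubule cells held 0 and 2 UMIs, and the endothelial level was the higher of the 2 in every kidney. Prex2, an exchange factor for Rac, had 227 and 104 CPM in naive, 339 and 208 CPM in rejecting, and 308 and 309 CPM in tolerized kidneys in the members and 9.67 and 9.24 CPM, 0.582 and 0 CPM, and 0.542 and 0.202 CPM in proximal tubule cells, with a difference of 5.39 ± 0.59 (SE, adjusted p = 3.29e-05). Peg3, an imprinted zinc finger gene, had 5.77 and 2.82 CPM in naive, 72.1 and 50.9 CPM in rejecting, and 74.95 and 53.6 CPM in tolerized kidneys in the members, with a difference of 4.44 ± 0.68 (SE, adjusted p = 0.000737). B2m, which overlapped between the groups in endothelial members, had 225 and 351 CPM, 2443 and 3766 CPM, and 2544 and 3485 CPM in proximal tubule cells of naive, rejecting, and tolerized kidneys. Cd74 was high in the proximal tubule cells of the grafts as well, at 53.9 and 231 CPM in naive, 5293 and 6029 CPM in rejecting, and 6668 and 5071 CPM in tolerized kidneys.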

How the data were processed

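Cells of 6 perfused, enzymatically dissociated kidneys were run on the 10x Chromium platform, 1 library per kidney. The deposited counts were UMIs per gene and barcode, made by the authors with bcl2fastq and Cell Ranger on mm10 (submitters' processing notes; headers of the transplanted kidneys name Cell Ranger 3.0.1). The 28208 genes shared by the naive list of 28692 and the transplanted list of 31053 were used. Libraries held 34874702 to 96803926 UMIs.

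Members' UMIs were summed per kidney, filtered with filterByExpr, scaled by TMM, and fitted with edgeR 4.0.16 (quasi-likelihood, Benjamini-Hochberg over 8223 genes) in R 4.3.3, without the 10 genes of the rule, which were not tested. DESeq2 1.42.0 was an alternative. Endothelial and proximal tubule sums were compared by an interaction with kidney as a term. Doublets were the highest Scrublet scores, 0.8% per 1000 barcodes, left out only as an alternative. On simulated counts for tolerized against rejecting kidneys (7844 genes), 50 genes were changed at each of 2-, 4-, 8-, and 16-fold. Of these, 2, 68, 96, and 96% were recovered, with 4 false calls. A false call in a simulation with so many changed genes does not measure how many genes called in the data are false. No smaller p than 0.333 is possible in an exact permutation test of 2 kidneys against 2.

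The members and the 32 gene lists were chosen with earlier results of these data known. Named genes were, per comparison, the 10 largest changes in each direction past an adjusted p of 0.05 without overlap and with a mean of at least 30 CPM, per list the 3 highest levels and the 3 largest changes, the genes of the rule, fixed names (Cd74, Ciita, Icam1, Vcam1, Ehd3, Plat, and others), and the 5 largest differences of response in each direction. Col1a1, Ccl21a, Mmrn1, Prox1, Adgre1, and Cd79a were named after their values were seen. Not every gene that this rule picked is reported here.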

Additional observations from a re-analysis of the deposited data

Results flagged for a closer look

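Genes are listed whose change differed between endothelial and proximal tubule cells by the interaction test (edgeR, adjusted p below 0.05) and that the rule for named genes picked, and values are the endothelial minus the proximal tubule log2 fold change. Between rejecting and naive kidneys the difference was 8.38 for Dock4, 7.53 for Ptn, 5.57 for Rarres2, 5.39 for Prex2, and 4.44 for Peg3. It was -8.71 for Dnase1, -8.52 for Gm4070, -6.53 for Gm4951, -5.77 for Flt4, and -5.56 for Gbp4. Fitted values of genes at 0 in a whole group depend on the prior count and are no measure of size: Dock4 was at 0 in naive members (at least 18.8-fold higher in rejecting members), Dnase1 at 0 in rejecting members (at least 17.4-fold lower), Flt4 and Gm4070 at 0 in naive proximal tubule cells, and Gbp4 at 0 and 2 UMIs there. Ptn, a heparin-binding growth factor, had 0 and 4.23 CPM in naive and 0 and 90.2 CPM in rejecting members, so rejecting replicate 2 alone carried it, and the difference turned to -2.59 without that kidney, and Rarres2, the chemerin gene, had 0 and 7.05 CPM and 1.57 and 199 CPM, with a difference that turned to -6.01 under a stricter rule for members. Flt4, the VEGF-C receptor, had 28.9 and 39.5 CPM in naive and 45.5 and 50.9 CPM in rejecting members, while proximal tubule cells had none in naive kidneys and 1.65 and 0.524 CPM in rejecting kidneys, close to 0. Gm4070 and Gm4951 were also at or near 0 in naive proximal tubule cells.

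Between tolerized and rejecting kidneys the difference was 4.25 for Wfdc2, 3.78 for Gimap5, 3.47 for Slc12a3, 3.13 for Atp1b1, 2.49 for S100g, -8.43 for Ccl2, and -2.37 for Vwa1. Slc12a3, the thiazide-sensitive cotransporter of the distal tubule, had 6.27 and 4.63 CPM in rejecting and 91.4 and 331 CPM in tolerized members, and 1 member held 68.8% and 67.3% of its UMIs in the tolerized kidneys. Gimap5, a GTPase of lymphocytes and endothelium, had 266 and 264 CPM in rejecting and 428 and 320 CPM in tolerized members. Its rise in members was far smaller than its difference of 3.78, which also holds the change in proximal tubule cells. Ccl2 rested on single members of the rejecting kidneys, as given above.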

How the results depend on the processing

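The counts of called genes depended on the kidneys and on the filter. Leaving out each replicate in turn gave 164 to 1350 genes for rejecting against naive, 84 to 1126 for tolerized against naive, 3 to 88 for tolerized against rejecting, 319 to 1225 for the difference of response between rejecting and naive, and 13 to 256 for that between tolerized and rejecting kidneys. Without a filter on low counts the 5 counts were 2053, 1587, 308, 966, and 137. DESeq2 gave 532 for tolerized against naive, 24 for tolerized against rejecting, and 379 and 6 for the differences of response. Among members with no UMI of a leukocyte marker 326 genes passed for rejecting against naive and 713 for tolerized against naive. For tolerized against rejecting 21 passed, and 1 and 9 rejecting members remained. Tolerized against rejecting kidneys further gave 9 genes at 1500 or more UMIs, 16 with a stricter rule, 7 among members with an Ehd3 UMI, an alternative added after seeing the data, and 0 at most 20% mitochondrial UMIs or without doublets. Signs turned among members with no UMI of a leukocyte marker for Robo4 (-0.18) and Vim (-0.18) in rejecting against naive, Wfdc2 (-0.21) and B2m (-0.052) in tolerized against naive, and Ciita (0.17) in tolerized against rejecting kidneys. Leaving out single kidneys gave -1.36 to 0.017 for Col4a1 in tolerized against rejecting kidneys, -0.15 to 0.42 for B2m in tolerized against naive kidneys, and -2.59 to 14.67 for the difference of response of Ptn, and a stricter rule gave -6.01 for Rarres2. The cause was not tested. With the replicate block 987, 626, and 3 genes passed, and same-numbered kidneys did not deviate together (correlations of -0.0543, 0.0649, and 0.00240). The labels do not tie the numbers to the study's 2 experiments, so the numbers were not taken as a pairing. Of named genes past the threshold in rejecting against naive kidneys, 110 of 120 kept it with the block, 112 with DESeq2, and 71 and 62 without naive replicate 1 and 2.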
